A study of Rattus norvegicus with 9 samples.

Results

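The core circadian clock genes were followed in whole-brain RNA of 9 rats. The set held 10 genes, taken from the deposited assembly as the locus that carried each gene's name on the same strand. They were Arntl (also called Bmal1) and Clock, the period genes Per1, Per2 and Per3, the cryptochrome genes Cry1 and Cry2, the nuclear receptor gene Nr1d1, and the D-box factors Dbp and Nfil3. Each name had 1 such locus, and all 10 loci were among the 39057 of 114601 loci that passed the filter on low counts. The rats were alcohol-naive males that had received no treatment. In 3 of them both copies of the long non-coding RNA gene Lrap carried a CRISPR/Cas9 deletion of 618 bp (homozygous, Hom, Lrap-/-, strain Crl:WI-Lrapem1Geh), in 3 a single copy did (heterozygous, Het, Lrap-/+), and 3 were wild-type (WT) Wistar rats of a commercial supplier. The labels used here state no age, littermate status or time of day at which the brains were taken, and all mutants carry the same edited allele.

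The clock is a feedback loop of transcription. CLOCK and the Arntl product bind E-box sequences and switch on the Per, Cry, Nr1d1 and Dbp genes. PER and CRY proteins then block CLOCK and the Arntl product, while the Nr1d1 product, REV-ERB alpha, silences Arntl through ROR elements, so that in most tissues Arntl peaks when Per, Nr1d1 and Dbp are low. Dbp activates and Nfil3 represses genes with D-boxes. Per1 also answers directly to neuronal activity, light and glucocorticoids. In the brain, cells of many regions run this loop, and the suprachiasmatic nucleus of the hypothalamus sets their phase.

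Short sequence elements through which these factors are known to act were looked for in the members' promoters. RefSeq windows of 300 bases (250 before and 50 after the annotated start, build GRCr8) matched 9 of the 10 members, with 11 windows in all. Cry1 had no window. The motifs searched, on both strands, were the E-box CACGTG, the related E-prime box CACGTT, the D-box TTATGTAA or TTACGTAA, the ROR and REV-ERB element TAGGTCA or TGGGTCA, and the cyclic-AMP response element TGACGTCA. No 2 of the matches below overlapped. Windows of 3 members are shown because they hold matches to the ROR element, the D-box and the E-box named above, with each match in capitals. The Arntl window (chr1:176766078-176766377, plus strand) holds TAGGTCA, starting 16 bases before the annotated start.
Arntl: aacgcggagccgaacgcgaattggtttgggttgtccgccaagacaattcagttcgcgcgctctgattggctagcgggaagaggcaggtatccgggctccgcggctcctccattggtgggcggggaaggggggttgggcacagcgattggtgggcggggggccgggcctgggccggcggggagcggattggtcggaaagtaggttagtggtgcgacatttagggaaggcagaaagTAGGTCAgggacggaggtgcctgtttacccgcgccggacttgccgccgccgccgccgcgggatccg
The Per2 window (chr9:99496944-99497243, minus strand) holds the D-box TTATGTAA 192 bases and CACGTT 62 bases before the start.
Per2: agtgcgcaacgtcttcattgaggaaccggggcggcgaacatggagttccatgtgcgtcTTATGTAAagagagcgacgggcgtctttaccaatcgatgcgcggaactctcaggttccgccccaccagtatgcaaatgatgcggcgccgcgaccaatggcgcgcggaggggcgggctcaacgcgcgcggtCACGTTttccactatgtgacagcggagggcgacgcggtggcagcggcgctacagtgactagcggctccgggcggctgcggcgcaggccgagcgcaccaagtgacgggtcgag
The second Nr1d1 window (chr10:84229405-84229704, minus strand) holds the E-box CACGTG 191 bases before its start.
Nr1d1: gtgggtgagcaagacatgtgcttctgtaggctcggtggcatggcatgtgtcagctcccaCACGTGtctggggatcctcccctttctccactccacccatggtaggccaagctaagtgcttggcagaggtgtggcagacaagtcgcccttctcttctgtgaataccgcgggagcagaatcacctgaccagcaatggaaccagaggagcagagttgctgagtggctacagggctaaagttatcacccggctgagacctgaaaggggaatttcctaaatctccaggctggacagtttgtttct
The other Nr1d1 window and the Cry2 window each hold an E-prime box, and the windows of Per1, Per3, Clock, Dbp and Nfil3 hold none of these letters. Among all 33469 such windows, 6.42% hold the E-box, 4.83% the E-prime box, 1.01% a D-box, 6.6% a ROR and REV-ERB element and 1.83% the cyclic-AMP element, so a match is a description of the sequence and not a shown binding site.

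The libraries held 27489383 to 46975919 estimated counts each. The labels were checked on Lrap itself: its isoform was at 0.245, 0.389 and 0.401 CPM (counts scaled to a common library total, with TMM factors) in Hom, 1.01, 1.0 and 1.11 in Het, and 2.58, 1.89 and 2.37 in WT, so the genotypes did not overlap. Some libraries stood apart. Mitochondrial loci took 40.4% of the counts in WT rat 2, against 14.8% to 28.1% in the other 8 libraries. Added spike-in RNA followed 1 pattern of proportions in the 3 Hom libraries and WT rat 2 and another in the remaining 5. The lowest correlation of a library with its own pattern was 0.993, and the highest with the other pattern was 0.945. The pattern and the genotype can therefore be told apart only through WT rat 2. The labels used here do not assign libraries to lanes. Nothing says how the rats were housed or sampled. The p-values of genotype differences set them against the spread among rats of the same genotype. Those of the correlations treat all 9 libraries as interchangeable, whatever the genotype or spike-in pattern. Any difference in origin between the supplier's WT rats and the mutants cannot be told apart from genotype. Markers of neurons (4 of 4 listed), astrocytes (3 of 4), oligodendrocytes (4 of 4) and microglia (4 of 4) were found in all libraries.

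Per length of transcript, Dbp was the most abundant member, and Nfil3, Per2 and Cry1 were the least. On the deposited TPM scale (the share of transcripts, corrected for length), Dbp averaged 12.1 (8.6 to 23.6 over the 9 libraries), Cry2 6.76 (5.27 to 10.1), Nr1d1 4.92 (3.55 to 8.95) and Arntl 4.31 (3.33 to 6.05). Clock averaged 2.75 TPM, Per1 2.59, Per3 2.56, Cry1 1.6, Per2 1.55 and Nfil3 1.44. Dbp stood above Cry2, Cry2 above Nr1d1, Arntl above Clock and Per3 above Cry1 in 9 of 9 libraries, and Nr1d1 stood above Arntl in 8 of 9. The neighbours Clock, Per1 and Per3 changed places between libraries (the higher mean was the higher value in 5 of 9 libraries for both steps), as did Cry1, Per2 and Nfil3 (6 of 9 for both steps). Dbp ranked 1 and Cry2 ranked 2 in all 9 libraries, whatever the genotype.

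The activators came first in the loop and varied little. Arntl (chr1:178038973-178137465, plus strand, build rn6), whose product pairs with CLOCK, was at 24.5, 25.7 and 24.7 CPM in Hom, 19.9, 23.2 and 24.3 CPM in Het, and 22.6, 16.7 and 22.9 CPM in WT. All Hom values stood above all Het and WT values, and WT rat 2 was the lowest of the 9. Arntl was 0.27 higher on the log2 scale in Hom than in WT (SE 0.16, edgeR adjusted p = 0.577), which did not pass the threshold of 0.05. The difference was 0.13 without WT rat 2. Clock (chr14:34446616-34502218, plus strand) was at 49.6, 47.8 and 55.2 CPM in Hom, 43.2, 52.9 and 47.1 CPM in Het, and 46.4, 40.0 and 58.9 CPM in WT. Its groups overlapped, with WT rat 3 the highest and WT rat 2 the lowest library, and the difference between Hom and WT was 0.07 (SE 0.17, edgeR adjusted p = 0.89), which became -0.05 without WT rat 2 and 0.27 without WT rat 3.

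Among the period genes, Per1 varied most and Per3 least. Per1 (chr10:55687050-55695994, plus strand) was at 21.8, 30.1 and 22.3 CPM in Hom, 13.2, 26.8 and 27.5 CPM in Het, and 15.5, 9.32 and 15.9 CPM in WT, a 3.23-fold span over the 9 rats. Each Hom rat stood above each WT rat, whereas Het rat 1 lay among the WT rats and the other Het rats near Hom. Per1 averaged 24.7 ± 4.63 CPM in Hom, 22.5 ± 8.07 in Het and 13.6 ± 3.69 in WT (SD, n = 3 each). It was 1.82-fold higher in Hom than in WT (log2 0.86, SE 0.29, unadjusted p = 0.0109, edgeR adjusted p = 0.544), and 1.65-fold higher in Het than in WT (log2 0.73, SE 0.29, unadjusted p = 0.0263, edgeR adjusted p = 0.981), and neither passed. Without WT rat 2 the difference between Hom and WT was 0.66.

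Per2 (chr9:98555169-98597359, minus strand), the period gene whose promoter is printed above, was at 21.2, 25.6 and 17.2 CPM in Hom, 16.1, 22.7 and 19.9 CPM in Het, and 22.6, 19.9 and 16.2 CPM in WT. The 3 genotypes overlapped throughout, and the difference between Hom and WT was 0.12 (SE 0.2, edgeR adjusted p = 0.833), or -0.01 without Hom rat 2 and 0.29 without Hom rat 3. Per3 (chr5:168085818-168123395, minus strand) was at 26.0, 28.8 and 24 CPM in Hom, 28.2, 24.7 and 25.5 CPM in Het, and 28.7, 29.4 and 28.2 CPM in WT, a span of 1.23-fold, the smallest of the 10 members. It was the only member lower in Hom than in WT (log2 -0.13, SE 0.14, edgeR adjusted p = 0.738). Its Het values lay below its WT values, Het rat 1 by less than the last printed digit.

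The cryptochromes, which are the partners of PER in repression, were both higher in Hom than in WT without passing the test. Cry1 (chr7:24534615-24634097, plus strand) was at 9.38, 8.54 and 11 CPM in Hom, 7.47, 10.9 and 9.4 CPM in Het, and 6.65, 5.41 and 9.35 CPM in WT. WT rat 3 lay within the Hom range, and the difference between Hom and WT was 0.43 (SE 0.23, edgeR adjusted p = 0.545), or 0.27 without WT rat 2 and 0.71 without WT rat 3. Cry2 (chr3:81314149-81344110, minus strand) was at 56.0, 55.8 and 53.8 CPM in Hom, 49.1, 55.5 and 53.1 CPM in Het, and 46.1, 34.5 and 51.5 CPM in WT. Its Hom rats were close together and above all WT rats, with WT rat 2 far below. Cry2 was 0.33 higher in Hom than in WT (SE 0.16, edgeR adjusted p = 0.544). When the spike-in pattern was a term of the model, which sets the Hom rats against WT rat 2, this became 0.68 and passed (edgeR adjusted p = 0.042), in a fit that called 2189 loci. In the same fit Per1 was at 1.41, Nfil3 at 1.4, Cry1 at 0.83, Nr1d1 at 0.66 and Arntl at 0.58, none past the adjusted threshold. Without WT rat 2 the Cry2 difference was 0.18.

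Nr1d1 (chr10:86683875-86691125, minus strand), the repressor of Arntl, was at 28.7, 26.7 and 23.7 CPM in Hom, 20.3, 22.6 and 25.2 CPM in Het, and 20.1, 16.7 and 31.4 CPM in WT. The highest and the lowest of the 9 values were both WT rats, and the difference between Hom and WT was 0.21 (SE 0.22, edgeR adjusted p = 0.723). Without WT rat 2 it was 0.03, and without WT rat 3 it was 0.55. Nr1d1 shares 263 exonic bases, 9.9% of its exons, with Thra on the other strand, whose mean count was 5923.9 against 934.7 for Nr1d1. An unnamed antisense locus of 28.1 mean counts covers 40.7% of its exons. The sources used here do not state whether counting used the strand, so the Nr1d1 values are less certain than the others. Unnamed antisense loci of the other members held at most 19.8 mean counts.

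Dbp (chr1:101687855-101692846, plus strand), an output gene driven by E-boxes in rodents, was at 27.7, 27.3 and 27.0 CPM in Hom, 22.6, 23.7 and 25.6 CPM in Het, and 20.4, 21.7 and 36.1 CPM in WT. The Hom rats were nearly identical and above all Het rats, while WT held both the lowest and the highest value. Dbp averaged 27.3 ± 0.343 CPM in Hom, 24 ± 1.51 in Het and 26.1 ± 8.75 in WT (SD, n = 3 each), and differed between Hom and WT by 0.07 (SE 0.2, edgeR adjusted p = 0.916), or -0.09 without WT rat 1 and 0.41 without WT rat 3. Nfil3 (chr17:12261102-12276315, plus strand), the D-box repressor, was at 5.22, 7.58 and 7.8 CPM in Hom, 3.89, 6.1 and 7.17 CPM in Het, and 4.76, 2.6 and 4.51 CPM in WT. Each Hom rat stood above each WT rat, and WT rat 2 was again the lowest. Nfil3 was 1.74-fold higher in Hom than in WT (log2 0.8, SE 0.29, unadjusted p = 0.0178, edgeR adjusted p = 0.544), which did not pass, and the difference was 0.57 without WT rat 2. It was the member of lowest count, with 100 to 324 counts a library.

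**Figure D1:**
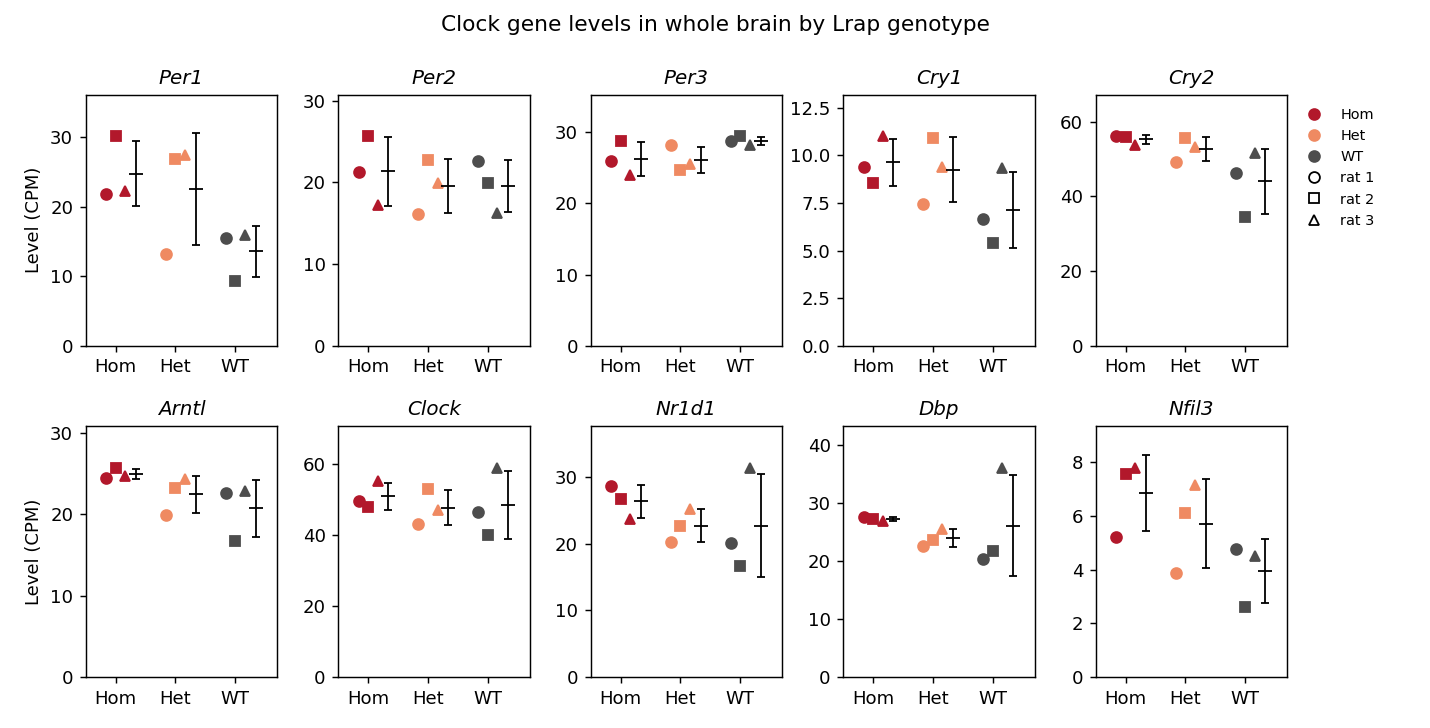
Level of each clock gene in CPM (vertical axis, from 0) for Hom, Het and WT rats, left to right. Symbols mark rats 1 to 3 and the bar is the mean ± SD (n = 3). Per1, Cry2, Arntl and Nfil3 stand higher in all Hom rats than in all WT rats, and WT rat 3 is the highest library for Clock, Nr1d1 and Dbp.

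Between Hom and WT, 0 of 10 members passed edgeR's test at adjusted p 0.05, where 0.0% of the 39057 loci passed (0 loci, and 3566 at unadjusted p below 0.05). DESeq2 called 33 loci and limma-voom 0, none of them a member. At unadjusted p below 0.05, 2 of 10 members (Per1 and Nfil3) were higher, against 4.88% of all loci and 10% of the 16576 loci with a gene name. The count was 1 (Per1) without WT rat 2 and 6 without WT rat 3 (Per1, Cry1, Cry2, Nr1d1, Dbp and Nfil3), and 6 with the spike-in pattern as a term (Arntl in place of Dbp). The share of all loci was not counted in these 3 fits, so these counts have no background of their own and are not a result about the members. With the spike-in term 2189 loci passed even the adjusted threshold. Without WT rat 3, 42.8% of named loci had all Hom values above the remaining WT values. The median of named loci moved as well, to 0.05, 0.3 and 0.36, beside 0.14, 0.45 and 0.62 over the members. On the TPM scale the 2 members at unadjusted p below 0.05 were Per3 and Dbp, both lower. There 3867 loci passed even the adjusted threshold and the median of named loci was -0.55. The share of all loci at unadjusted p was not counted on that scale, so this count has no background either. In 4 of 10 members (Per1, Cry2, Arntl and Nfil3) all Hom CPM values lay above all WT values, which held for 7.29% of all loci and 14.5% of named loci. The median difference was 0.24 over the members, against -0.07 over all loci and 0.14 over named loci.

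These directions depended on how the libraries were put on a common scale. With factors taken from named genes alone, the median of named loci was -0.01 and 6 of 10 members were positive. The members above all WT values were then Per1 and Cry1, 2 of 10, against 4.9% of all loci and 10% of named loci. On the deposited TPM scale the median of named loci was -0.55, and 2 members, Per1 (0.1) and Nfil3 (0.08), remained positive. There Per2, Per3, Arntl, Clock and Dbp lay below all WT values, as 55.7% of named loci did. Relative to the median of named loci, 6 of 10 members stood above it on each of these 3 scales. Without WT rat 2 the same 4 members lay above the remaining WT values (16.3% of named loci). Leaving out WT rat 3 raised the members above all WT values to 8, where 42.8% of named loci were.

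In Het against WT, 0 of 10 members passed edgeR's test, where 0.00768% of loci (3) passed. 1 member, Per1, was higher at unadjusted p below 0.05, against 1.37% of loci. DESeq2 called 18 loci and limma-voom 2, with no member among them. No member had all Het values above all WT values, against 2.69% of loci, and Per3 had all Het values below, against 3.8%. With scaling on named genes Cry2 lay above all WT values and Per3 overlapped them, and on the TPM scale all 10 overlapped. The share of all loci was not counted on these 2 scales in this comparison. Nfil3 differed by 0.53 (SE 0.29), Cry1 by 0.37 (SE 0.23) and Cry2 by 0.26 (SE 0.16), and the other members but Per1 by -0.14 to 0.11, each with an edgeR adjusted p of 0.981 or more. The median was 0.06 over the members and 0.07 over named loci.

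In Hom against Het, 0 of 10 members passed edgeR's test (0 at unadjusted p below 0.05), where 0.00256% of loci (1) passed. DESeq2 called 6 loci and limma-voom 2, again with no member. Differences ran from 0.01 for Per3 to 0.27 for Nfil3, and on the TPM scale all 10 were negative. Arntl and Dbp had all Hom values above all Het values, 2 of 10 members against 4.71% of loci and 8.19% of named loci. With scaling on named genes only Dbp did, and on the TPM scale no member did. For these 2 scales the share of all loci was not counted here either. The median was 0.13 over the members and 0.07 over named loci.

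**Figure D2:**
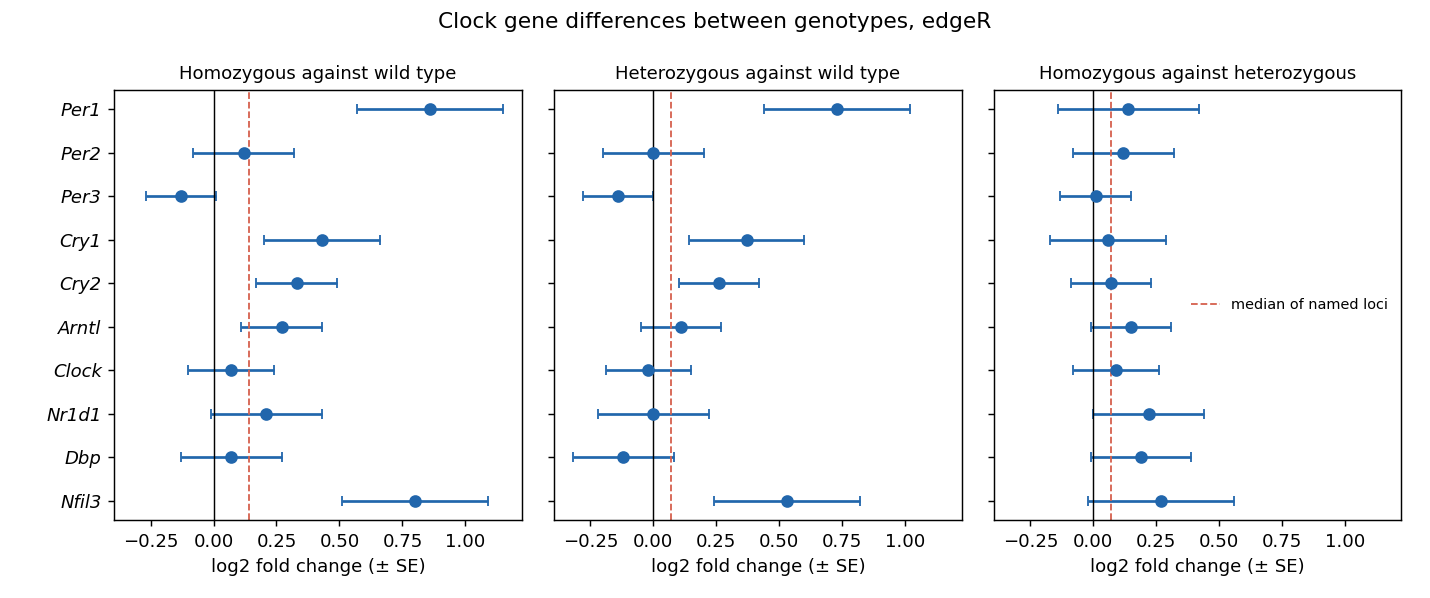
The log2 fold change of each clock gene (horizontal axis, ± SE, edgeR over 9 libraries) for Hom against WT, Het against WT and Hom against Het. The dashed line is the median of named loci (0.14, 0.07 and 0.07). Per1 and Nfil3 lie farthest right against WT, and no gene passed the adjusted threshold.

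Over a day, Arntl moves against Per, Nr1d1 and Dbp in most tissues, so the difference between these groups of genes depends on the phase at which a tissue is taken. The measure used was the mean log2(CPM + 0.5) of Arntl and Clock minus that of Per1, Per2, Per3, Nr1d1 and Dbp, which a common scaling factor leaves almost as it is. It was 0.48, 0.34 and 0.7 in Hom, 0.58, 0.53 and 0.46 in Het, and 0.61, 0.5 and 0.59 in WT. Means were 0.51 ± 0.18 in Hom, 0.52 ± 0.07 in Het and 0.57 ± 0.06 in WT (SD, n = 3 each), so the genotypes overlapped. The highest and lowest values were both Hom rats and lay 0.358 apart, a ratio of 1.28-fold. The labels hold no time of day, so the part of sampling time in any of these differences was not tested. In whole-brain RNA, regions of different phase are also pooled, and fewer cells of a type and less RNA per cell cannot be told apart.

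Ratios within a library are free of the scaling between libraries. Per1 over Arntl was 0.892, 1.17 and 0.904 in Hom, 0.662, 1.16 and 1.13 in Het, and 0.685, 0.558 and 0.696 in WT. All Hom rats were above all WT rats. Per3 over Arntl was 1.06, 1.12 and 0.972 in Hom, 1.42, 1.07 and 1.05 in Het, and 1.27, 1.76 and 1.23 in WT, where all Hom rats were below all WT rats. Relative to Arntl, Per1 and Per3 thus differed in direction. Arntl itself was 0.27 higher in Hom than in WT, against a median of 0.14 over named loci, which lowers ratios to it in Hom. The share of all loci whose ratio to Arntl separates Hom from WT was not counted, so neither ratio is shown to be particular to its gene. Dbp over Arntl was 1.13, 1.06 and 1.09 in Hom, 1.13, 1.03 and 1.05 in Het, and 0.901, 1.3 and 1.58 in WT. Its spread was within WT, with WT rat 1 the lowest and WT rat 3 the highest of the 9 libraries. Nr1d1 over Arntl spanned 0.889 to 1.37 and Per2 over Arntl 0.696 to 1.19, both with overlapping genotypes. Per1 over Per2 was 1.03, 1.18 and 1.3 in Hom, 0.817, 1.18 and 1.38 in Het, and 0.686, 0.467 and 0.984 in WT, so these paralogs also differed in their pattern over the rats.

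**Figure D3:**
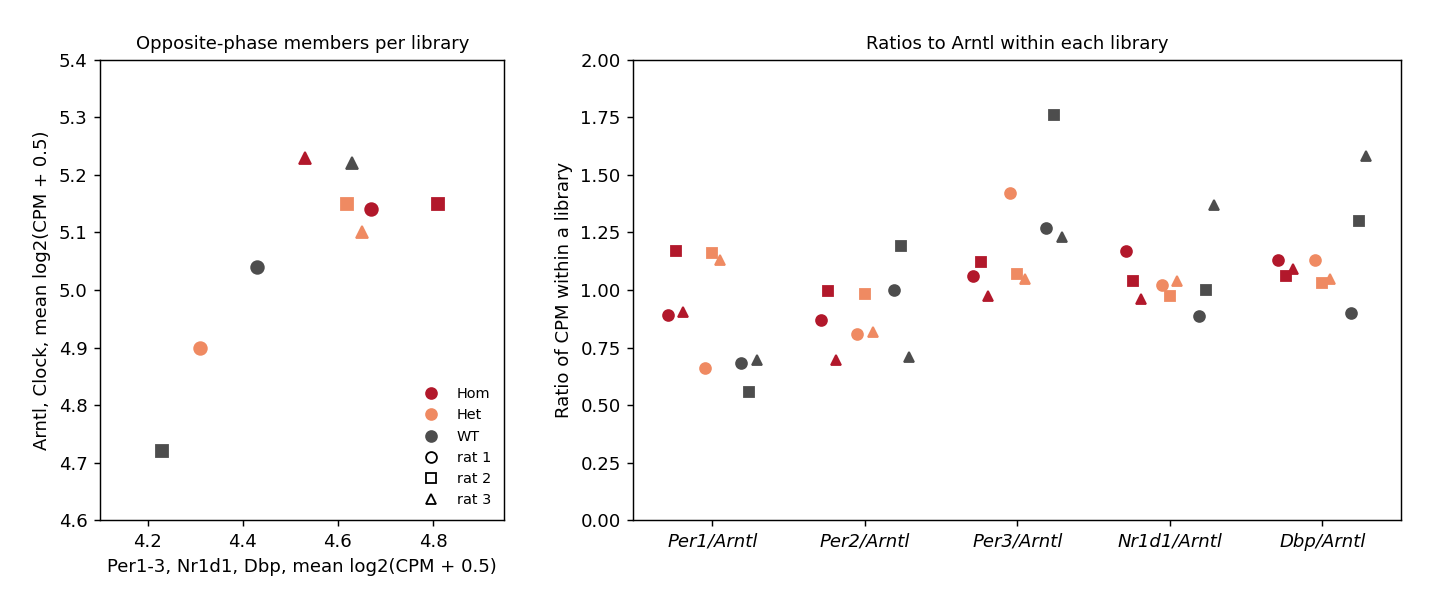
Left, mean log2(CPM + 0.5) of Arntl and Clock (vertical) against that of Per1, Per2, Per3, Nr1d1 and Dbp (horizontal), a point per library. Right, the ratio of each of these 5 genes to Arntl within a library (vertical axis, from 0), with Hom, Het and WT left to right. Per1/Arntl is higher in all Hom rats (0.892 to 1.17) than in all WT rats (0.558 to 0.696), and on the left WT rat 2 is lowest on both axes. The share of all loci with such a ratio was not counted.

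Over the 9 libraries the opposite-phase members did not move against each other in general on the CPM scale, but the signs depended on the scale. With scaling on named genes Per1 with Clock (r = -0.27) and Arntl with Dbp (r = -0.39) were negative. Arntl with Nr1d1 fell to 0.24 and Clock with Nr1d1 to 0.06. On the TPM scale Per2 with Clock (0.79), Per3 with Arntl (0.82) and Per3 with Clock (0.85) were positive. The values that follow are on the CPM scale. Of the 10 pairs of Arntl or Clock with Per1, Per2, Per3, Nr1d1 or Dbp, 7 had a positive and 3 a negative Pearson r of log2(CPM + 0.5). The negative pairs were Per3 with Clock (r = -0.53, rho = -0.55), Per3 with Arntl (r = -0.52, rho = -0.42) and Per2 with Clock (r = -0.2, rho = -0.03), none past an adjusted p of 0.05 in the exact permutation test. The 4 pairs that passed, of 45 tested, were positive: Per1 with Arntl (r = 0.9, rho = 0.87, exact permutation p = 0.00054, adjusted p = 0.0081 for r and 0.0338 for rho), Arntl with Nr1d1 (r = 0.77), Clock with Nr1d1 (r = 0.76) and Clock with Dbp (r = 0.76). For the last 3 the adjusted exact permutation p was 0.0381, 0.0462 and 0.0459 for r and 0.158, 0.127 and 0.115 for rho. Without the 2 libraries farthest from the median of the first-named gene, r was 0.73 for Per1 with Arntl but 0.27, 0.33 and 0.48 for the others, which rest on those libraries.

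Over all 45 pairs, 33 were positive and 17 passed the adjusted threshold, 16 of them positive. Per1 with Nfil3 had r = 0.94 and rho = 0.88 (exact permutation p = 0.000355 and 0.00308, adjusted p = 0.008 and 0.0338), and 0.82 without the 2 farthest libraries. Nr1d1 with Dbp, which both carry E-box control in rodents, had r = 0.89 and rho = 0.97 (exact permutation p = 0.00172 and 0.000165, adjusted p = 0.0144 and 0.00744), and 0.9 without the 2 farthest libraries. The negative pair that passed was Per3 with Cry1 (r = -0.83, rho = -0.92, exact permutation p = 0.0049 and 0.00131, adjusted p = 0.0289 and 0.0197), with -0.7 without the 2 farthest libraries. Taken as deviations from the genotype means, r was 0.89 for Per1 with Nfil3, 0.9 for Nr1d1 with Dbp, -0.72 for Per3 with Cry1 and 0.89 for Per1 with Arntl. Taken as deviations from the means of the 2 spike-in patterns, the same 4 values were 0.94, 0.89, -0.83 and 0.9. No r is given within each pattern, which held 5 and 4 libraries.

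Positive correlation was also the background. Among 10643 named genes of at least 5 CPM, 85.1% had a positive r with Arntl, with a median of 0.6, and the median r was 0.55 with Dbp, 0.5 with Per1 and -0.45 with Per3. Per1 with Arntl stood above 98.3% of named genes, Per1 with Nfil3 above 99.7% and Nr1d1 with Dbp above 96.8%, whereas Per3 with Cry1 had a lower r than all but 0.413%. Clock with Dbp stood above 70.6% and Clock with Nr1d1 above 70.5%. Without WT rat 2, whose mitochondrial share was 40.4%, 1 of 45 pairs passed (Nr1d1 with Dbp, r = 0.93). With scaling on named genes 2 passed, Per1 with Nfil3 (r = 0.91) and Per3 with Cry1 (r = -0.91), and on the TPM scale 28 passed and Per3 with Cry1 was positive (r = 0.55).

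**Figure D4:**
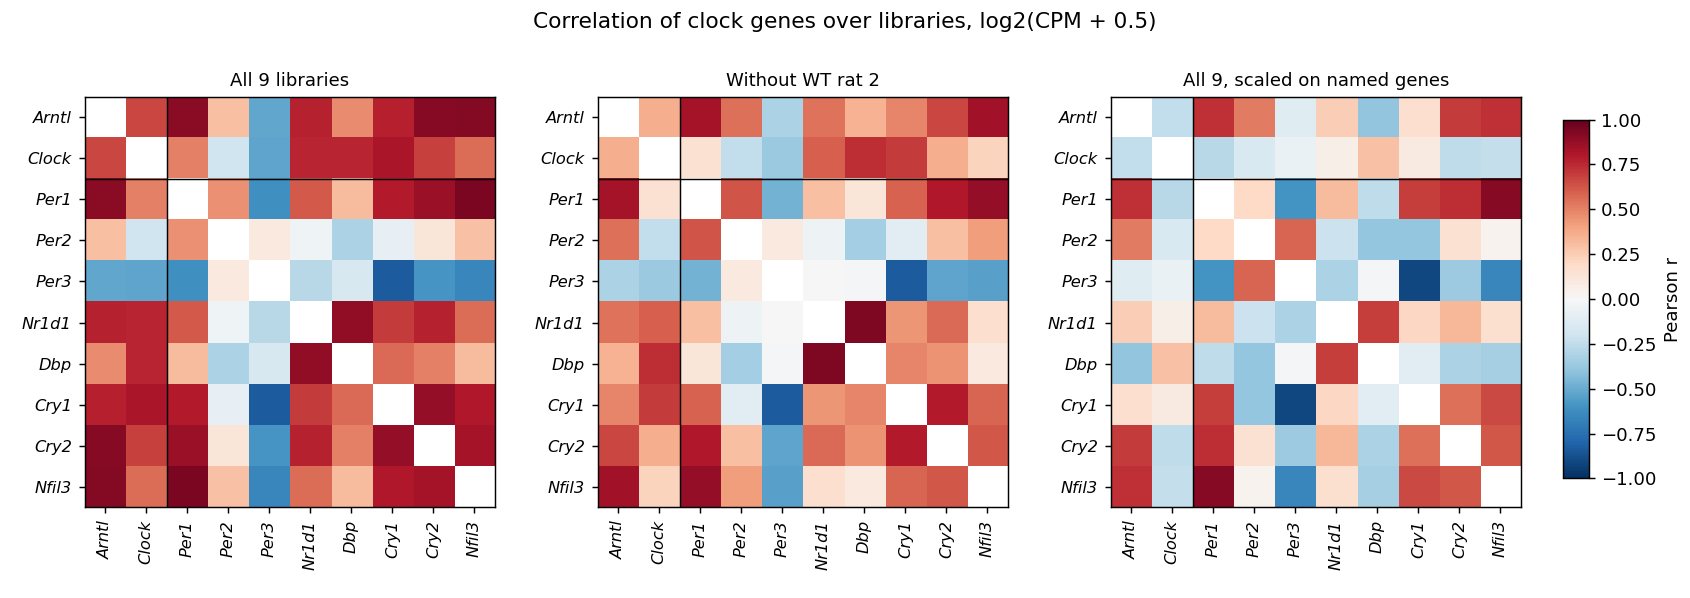
Pearson r of log2(CPM + 0.5) between clock genes, with Arntl and Clock boxed off from the rest, over all 9 libraries, without WT rat 2, and with scaling on named genes. Red is positive and blue negative (colour bar, -1 to 1). Most pairs are positive in the left panel, and the pair of Per1 with Nfil3 stays positive and that of Per3 with Cry1 negative in each panel.

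The named genes whose levels followed Arntl most closely over the 9 libraries were Zdhhc7 and Ctnnbip1 (r = 0.99 each), Abcb6, Zfp710 and Mgst3 (r = 0.98 each). Ctnnbip1 was at 14.6, 16.5 and 14.7 CPM in Hom, 10.7, 14.1 and 14.2 CPM in Het, and 12.5, 8.72 and 13.4 CPM in WT, with WT rat 2 again lowest. Those most like Dbp were AABR07031734.2 (r = 0.96), Ppil2, Ric3 and RT1-S3 (r = 0.95 each) and Dmxl2 (r = 0.94). All were highest in WT rat 3, as Dbp was: Dmxl2 was at 172.0, 164.0 and 183.0 CPM in Hom, 157.0, 165.0 and 162.0 CPM in Het, and 151.0, 151.0 and 213.0 CPM in WT. Those most like Per1, a gene looked up after its values were seen, were Tbc1d13 (r = 0.98), Ehd3, Tbc1d10a and Arhgef3 (r = 0.97 each) and Tmem80 (r = 0.96). No other clock gene was among these 15.

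Isoforms were assigned by the authors as a percent of each gene's output. Per1, Cry1, Cry2 and Nr1d1 had a single isoform, and Per3 had 10. The main Arntl isoform took 51.3%, 70.8% and 79.5% in Hom, 84.8%, 73.7% and 78.3% in Het, and 73.5%, 84.3% and 82.9% in WT, with overlapping genotypes. The main Dbp isoform took 68.4%, 65.5% and 60.6% in Hom, 51.0%, 62.1% and 68.3% in Het, and 46.0%, 48.4% and 57.3% in WT. WT rat 1 was the lowest and Hom rat 1 the highest of the 9. The main Nfil3 isoform took 89.4%, 81.1% and 90.7% in Hom, 85.1%, 88.7% and 86.7% in Het, and 65.0%, 70.2% and 84.7% in WT, where Hom rat 2 lay below WT rat 3. The main isoform of Clock took 71.0% to 84.4% over the 9 libraries and that of Per2 32.8% to 68.6%. These shares are given without a test.

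The other genes of the loop stayed near the background. Of 12 further clock regulators, all tested, 0 passed edgeR's adjusted test and 0 the unadjusted threshold between Hom and WT, with a median of 0.11 against 0.14 over named loci. Among those of smallest p were Nr1d2, the paralog of Nr1d1 (-0.37, SE 0.24), and Bhlhe40, an E-box repressor (0.24, SE 0.19). Of 10 kinases, phosphatases and ligases that act on clock proteins, 0 passed, with a median of 0.06. At unadjusted p below 0.05, 1 of 10 was higher, the same share as the 10% of named loci (4.88% of all loci). It was Csnk1e, which phosphorylates PER (0.39, SE 0.17, unadjusted p = 0.0426, edgeR adjusted p = 0.544), followed by Csnk1d (0.17, SE 0.16) and Gsk3b (-0.12, SE 0.16). Of 8 rhythmic output genes 7 were tested and 0 passed, with a median of 0.13. At the unadjusted threshold 1 of 7 was higher, near the 10% of named loci. It was Cdkn1a, a cell-cycle inhibitor (0.63, SE 0.24, unadjusted p = 0.023, edgeR adjusted p = 0.544), followed by Klf10 (0.51, SE 0.36) and Klf9 (0.13, SE 0.2). In Het against WT the 3 lists had medians of 0.01, 0.02 and 0.08, and in Hom against Het of 0.09, 0.04 and 0.12, with 0 genes past either threshold.

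Genes that neurons switch on with activity were, like Per1, highest in Hom and lowest in WT on average. Fos was at 13.6, 30.4 and 22.7 CPM in Hom, 2.7, 12 and 27.3 CPM in Het, and 10.4, 4.66 and 4.29 CPM in WT. Hom rat 2 was the highest library of the 9 for both Fos and Per1, and Het rat 1 was the lowest Het rat for both. In WT the order differed, since rat 3 was highest for Per1 (15.9) and lowest for Fos (4.29), and the lowest of all 9 libraries was WT rat 2 for Per1 and Het rat 1 for Fos. The 10 listed activity-induced genes summed to 165.0 to 353.0 CPM in Hom, 70.2 to 259.0 in Het and 64.3 to 161.0 in WT. All 10 were higher in Hom than in WT, 8 at unadjusted p below 0.05 (against 4.88% of all loci and 10% of named loci) and 0 after adjustment, with a median of 1.32 against 0.14 over named loci. The smallest p belonged to Junb (1.88, SE 0.52, edgeR adjusted p = 0.544), Egr4 (0.92, SE 0.32) and Npas4 (1.2, SE 0.49). In Het against WT all 10 were also positive, with a median of 0.87 and 0 at unadjusted p below 0.05, and in Hom against Het the median was 0.49.

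Glucocorticoid-induced genes, another group that shares an inducer with Per1, summed to 153.0 to 159.0 CPM in Hom, 126.0 to 160.0 in Het and 107.0 to 147.0 in WT. Of 11, all were positive in Hom against WT, with a median of 0.37 against 0.14 over named loci. At unadjusted p below 0.05, 3 of 11 were higher, against 4.88% of all loci and 10% of named loci, and 0 after edgeR's adjustment. The 3 were Mt2A (0.7, SE 0.22), Ddit4 (0.71, SE 0.27) and Cdkn1a (0.63). Fkbp5, a standard member of this group, differed by 0.04 (SE 0.16). In Het against WT the median was 0.21 and in Hom against Het 0.15, with 0 at unadjusted p below 0.05. The part of either group's inducer in the Per1 values was not tested.

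WT rat 3, the highest library for Clock, Nr1d1 and Dbp, was also the highest for the sum of the cerebellar markers. This was not particular to the cerebellum. The same rat had the highest sums of the neuronal (1220.0 CPM) and astrocyte (810.0 CPM) markers, though not of the oligodendrocyte or microglial ones. Gabra6, a receptor subunit of granule cells, was at 66.4, 0.585 and 56.8 CPM in Hom, 15.7, 23.7 and 35.0 CPM in Het, and 2.3, 4.32 and 103.0 CPM in WT. The 7 listed markers summed to 39.4 to 318.0 CPM in Hom, 110.0 to 189.0 in Het and 35.6 to 377.0 in WT, and all were above 0 but Barhl1 in WT rat 2. All 7 were positive in Hom against WT with a median of 0.48 and none at unadjusted p below 0.05, the smallest p belonging to Barhl1 (0.78, SE 0.89), Pcp2 (1.28, SE 1.8) and Zic1 (0.48, SE 0.76). Hom rats 1, 2 and 3 had 66.4, 0.585 and 56.8 CPM of Gabra6 beside 27.7, 27.3 and 27.0 CPM of Dbp. The part of cerebellar content in the Dbp values was not tested. Nr1d2 at 55.6 CPM and Ciart at 5.01 CPM, clock genes singled out after their values were seen, were also highest in WT rat 3. Npas2, of the same list of clock regulators, was instead lowest in that rat, at 29.4 CPM. Tef at 134.0 CPM and Hlf at 64.6 CPM were neither highest nor lowest there.

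The pineal gland, whose melatonin synthesis follows the clock, was unevenly present. Tph1, its serotonin-synthesis enzyme, was at 0.265, 0.187 and 6.62 CPM in Hom, 1.1, 90.9 and 92.8 CPM in Het, and 0.153, 3.57 and 1.1 CPM in WT. Of 9 listed pineal genes 8 were found, and their sum was 1.68 to 9.06 CPM in Hom, 3.25 to 105.0 in Het and 1.94 to 4.87 in WT. Crx was at 0 in all Hom and WT libraries. Aanat, the enzyme whose RNA rises steeply at night in the rat pineal, was at 0.323 and 0.341 CPM in Het rats 2 and 3 (16 and 13 counts, beside 4499 and 3532 of Tph1) and at 0.0 to 0.1 in the other 7 libraries (at most 4 counts). It was below the filter and was not tested. Per1 was at 26.8 and 27.5 CPM in these 2 Het rats, and at 30.1 CPM in Hom rat 2, where Tph1 was at 0.187. The part of pineal content in the Per1 values was not tested. Between Het and WT, 3 of 4 tested pineal genes were higher at unadjusted p below 0.05 (1.37% of all loci), with a median of 3.16, and between Hom and Het 2 of 4 were lower (1.2% of all loci) with a median of -2.95. These counts and medians rest on Het rats 2 and 3 and do not describe the genotype. Het rat 1 was at 1.1 CPM of Tph1 and at 0.0879 CPM of both Gngt2 and Lhx4, no higher than the highest WT rat. Asmt, Crx and Isl2 also fell below the filter. Between Hom and WT, Chrna3 (0.13, SE 0.41), Tph1 (0.59, SE 1.84) and Lhx4 (0.33, SE 1.1) had the smallest p and the median was 0.23. No pineal gene passed edgeR's adjusted test.

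Of 9 listed suprachiasmatic and hypothalamic genes 6 were tested, with 0 at either threshold in any comparison and medians of 0.32 in Hom against WT, 0.23 in Het against WT and 0.17 in Hom against Het. In Hom against WT, Vip (0.22, SE 0.2), Oxt (0.7, SE 0.67) and Lhx1 (0.76, SE 1.13) had the smallest p. Their sums were 21.6 to 25.8 CPM in Hom, 20.1 to 22.7 in Het and 14.6 to 23.9 in WT. Avp, an output peptide of the suprachiasmatic nucleus that other hypothalamic nuclei also make, was at 1.95, 1.26 and 1.21 CPM in Hom, 1.32, 1.9 and 1.08 CPM in Het, and 1.15, 0.026 and 2.03 CPM in WT. Its near absence was in WT rat 2, the lowest library for Arntl, Clock, Per1, Cry1, Cry2, Nr1d1 and Nfil3. Low values there were not particular to these genes. The same rat had the lowest sums of the neuronal (828.0 CPM), oligodendrocyte (2050.0 CPM) and microglial (62.1 CPM) markers, though not of the astrocyte ones. Its mitochondrial share was 40.4%. Six6, a marker of the suprachiasmatic nucleus, was at 0 in 5 libraries and at most 0.0468 CPM in the others. In the same list Vip was at 6.54 to 10.5 CPM and Rgs16 at 3.57 to 9.45 CPM. Whole brains were sequenced, so the members' values here are those of the brain as a whole.

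No blood or microglial gene passed edgeR's adjusted test in any comparison. The 5 blood genes summed to 112.0 to 145.0 CPM in Hom, 94.3 to 196.0 in Het and 144.0 to 366.0 in WT, and all 5 were lower in Hom than in WT at unadjusted p below 0.05 (against 4.25% of all loci and 1.03% of named loci), with a median of -1.53 (Slc4a1 -1.53, S100a8 -2.76, Hbb -0.91). The 4 microglial markers summed to 88.0 to 99.0 CPM in Hom, 76.5 to 94.5 in Het and 62.1 to 82.1 in WT. Of these, 3 of 4 were higher in Hom than in WT at unadjusted p below 0.05 (against 4.88% of all loci and 10% of named loci), with a median of 0.55 (C1qa 0.62, Tmem119 0.69, Cx3cr1 0.49). In Het against WT, 1 of 5 blood genes was lower at that threshold (against 2.35% of all loci) and 0 of 4 microglial genes passed it, and in Hom against Het 0 of either list did. Medians in Hom against WT were 0.1 for the neuronal, 0.24 for the astrocyte and 0.32 for the oligodendrocyte markers. The part of tissue makeup in the members' values was not tested.

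**Figure D5:**
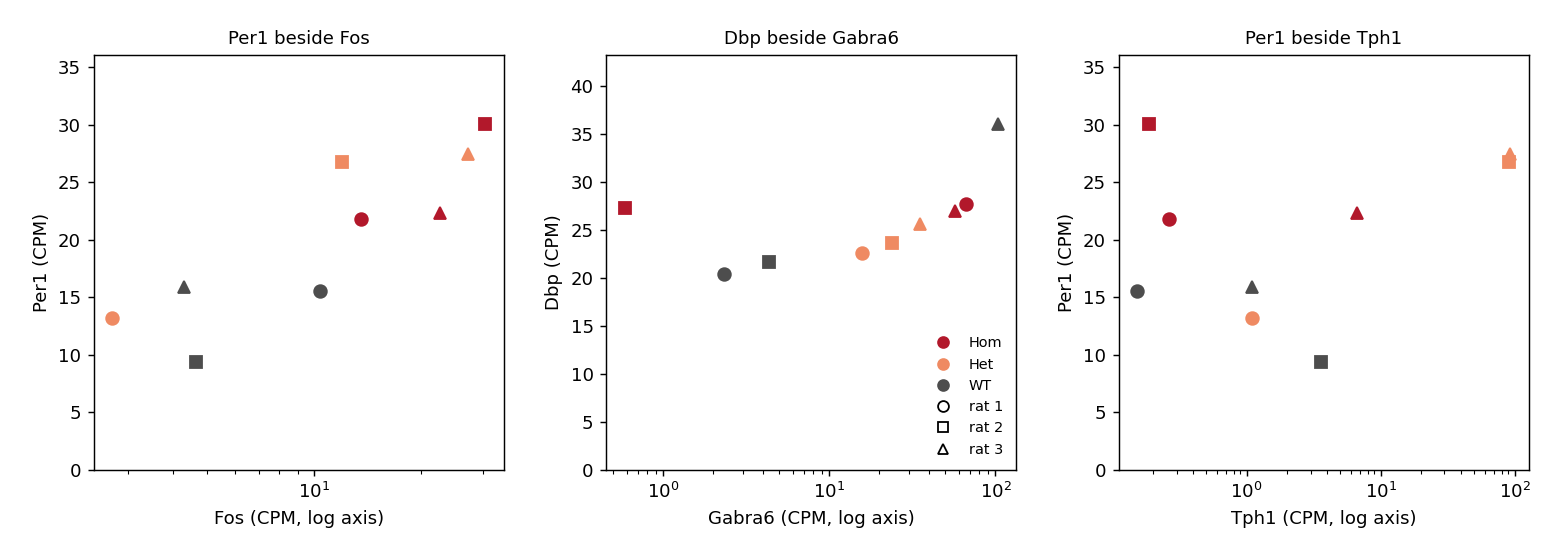
Per1 beside Fos, Dbp beside Gabra6, and Per1 beside Tph1, in CPM, a point per library (vertical axes from 0, horizontal axes logarithmic). Hom rat 2 is highest for Per1 (30.1) and Fos (30.4) and lowest for Gabra6 (0.585), WT rat 3 is highest for Dbp (36.1) and Gabra6 (103.0), and Het rats 2 and 3 are highest for Tph1 (90.9 and 92.8).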

How the data were processed

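Whole-brain total RNA of 9 rats was sequenced from ribosome-depleted, stranded libraries in paired reads, per the labels' protocols. The authors deposited expected counts, which are RSEM's estimated and often fractional read totals, for loci and isoforms. They also deposited TPM (scaled by length and library) and the percent of a gene's RNA given to each isoform, with positions in build rn6. The submitters' processing notes name cutadapt, HISAT2, StringTie and RSEM without versions. The sources used here do not say whether counting used strand.

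Expected counts were rounded. Of 114601 loci, 39057 passed filterByExpr and were fitted with TMM factors and edgeR 4.0.16's robust quasi-likelihood test in R 4.3.3, with all 3 genotypes in 1 model and Benjamini-Hochberg adjustment over all loci (threshold 0.05). Correlations used log2(CPM + 0.5), two-sided exact permutation over 9 libraries and adjustment over 45 pairs. DESeq2 1.42.0, limma 3.58.1 on log2(TPM + 0.1), limma-voom, other scaling factors, no filter, the legacy edgeR method, 2-genotype fits, the spike-in pattern, the replicate block and leaving out each rat were alternatives. No deposited per-sample column was left unmapped. Counts differed between every pair of libraries beyond sampling noise (chi-square of 24.7 to 513.0 per locus).

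The members, gene lists and motifs were chosen with earlier results of these data known. The text names all members, the 5 named genes most like Arntl and Dbp, the 3 tested genes of smallest p in each list of clock or neighbouring genes, Lrap, Aanat, Tph1, Gabra6, Avp and Fos. 1 gene that this rule names is not reported here. The within-library ratios, the deviations from spike-in pattern means, the isoform shares, the counts on other scales and the genes named outside this rule were picked after their values were seen.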

Additional observations from a re-analysis of the deposited data

How the results depend on the processing

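No member passed in any comparison under any alternative except Cry2 with the spike-in pattern as a term (1 member in Hom against WT). Loci called in Hom against WT, 0 with edgeR, were 33 with DESeq2, 3867 on TPM, 6 without the filter, 1 with the replicate block, 2189 with the spike-in pattern and 0 to 5 without a rat. In Het against WT, 3 became 18, 32, 5 and 1 with DESeq2, TPM, no filter and the spike-in pattern, 1 with scaling on named genes, 7 with 2 genotypes and 1 to 28 without a rat. In Hom against Het, 1 became 6, 10, 2 and 5 with DESeq2, TPM, no filter and the spike-in pattern, and 2 with DESeq2's size factors, limma-voom, 2 genotypes or the replicate block, and 1 to 18 without a rat. Rat numbers did not pair the libraries (correlations of deviations of -0.18 to 0.4), and the replicate block changed no call of a member. Members above all WT libraries, 4, were 2 on named-gene scaling, 0 on TPM and 4 to 8 without WT rat 2 or 3 (chosen after seeing the data). Pairs past the threshold, 17, were 28 on TPM, 2 on named-gene scaling and 1 to 22 without a rat.

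Of 570 member differences under alternatives 522 were scored as keeping direction and side of the threshold and 47 as reversed. Per2 and Nr1d1 in Het against WT were at -0.0 in the main fit and had no direction to keep. All 19 alternatives of each were scored as kept, although without a rat Per2 ranged from -0.12 to 0.15 and Nr1d1 from -0.18 to 0.34. On TPM, Hom against WT gave Per2 -0.57, Cry1 -0.3, Cry2 -0.43, Arntl -0.5, Clock -0.67, Nr1d1 -0.51 and Dbp -0.71, Het against WT gave Cry1 -0.01, Cry2 -0.13 and Arntl -0.28, and Hom against Het gave Per1 -0.17, Per2 -0.26, Per3 -0.36, Cry1 -0.29, Cry2 -0.3, Arntl -0.22, Clock -0.27, Nr1d1 -0.15, Dbp -0.21 and Nfil3 -0.09. On named-gene scaling Per2 (-0.05), Clock (-0.08) and Dbp (-0.06) reversed in Hom against WT and Per3 (-0.07) and Cry1 (-0.01) in Hom against Het. Clock in Het against WT was 0.04 without the filter, Arntl -0.02 with the spike-in pattern, and Per3 in Hom against Het -0.02, -0.01 and -0.04 without the filter, with 2 genotypes and with the spike-in pattern. Without a rat, Hom against WT ranged from -0.01 to 0.29 for Per2, -0.05 to 0.27 for Clock and -0.09 to 0.41 for Dbp. Het against WT ranged from -0.02 to 0.23 for Arntl, -0.14 to 0.18 for Clock and -0.27 to 0.23 for Dbp, and Hom against Het from -0.16 to 0.31 for Per1, -0.02 to 0.28 for Per2, -0.06 to 0.09 for Per3 and -0.09 to 0.2 for Cry1. Among pairs, r became positive on TPM for Per2 with Clock (0.79), Per3 with Cry1 (0.55), Per3 with Arntl (0.82) and Per3 with Clock (0.85), and negative on named-gene scaling for Per1 with Clock (-0.27) and Arntl with Dbp (-0.39). Per2 with Clock ranged from -0.48 to 0.12 without a rat. The TPM shift was that of all named loci (-0.55 in Hom against WT), and its cause was not tested. Counts of isoforms with a member's name alone were those of the whole locus, so that alternative gave no other value. Nfil3 had the fewest counts of the members, 100 to 324 a library.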
